A study of Equus caballus with 45 samples.

Results

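The 9 genes described here are 3 transcription factors of the cartilage lineage, SOX9, SOX5 and SOX6, and 6 proteins of the cartilage matrix, ACAN, HAPLN1, COMP, MATN1, MATN3 and MATN4. They were taken by symbol, and all 9 are present among the 20881 protein coding genes of both count tables. RNA was sequenced from equine bone marrow mesenchymal stromal cells (MSC) after innate immune activation, and from equine chondrocytes, synoviocytes and macrophages exposed to inflammatory cytokines and to medium conditioned by such MSC (MSC-CM). The design asks how activation changes MSC, and how the medium of activated MSC changes inflamed joint cells.

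The MSC came from 3 horses, labelled PC, 99 and 92, with 1 library per horse for each of 4 conditions: untreated, the TLR3 agonist poly I:C, the STING agonist 2′3′-cGAMP, and a label CpG that is not described further in the sources used here. The agonists were applied for 2 h, at 10 μg/mL according to the series design and at 10 ng/mL according to the sample labels. Each kind of joint cell gave 11 libraries. In 9 of them the cells received IL-1β and TNF-α and MSC-CM from resting, TLR-activated or STING-activated MSC of the medium donors PC, ORC and AG1 (n = 3 per medium), diluted 1 part to 3 parts complete medium, for 24 h, followed by 24 h in fresh medium. The paper's abstract gives the cytokines for 2 h and then a wash before MSC-CM, whereas its methods name no wash between them. All 9 libraries with MSC-CM therefore come from cells given the cytokines as well, and resting MSC-CM is not an unstimulated control. Another library had the cytokines without MSC-CM and the last had no addition, with 1 library each. The labels give the cytokines at 20 ng/mL for synoviocytes and at 10 ng/mL for macrophages and give no dose for chondrocytes, whereas the methods give 20 ng/mL for all 3. They also give a medium donor to the 6 libraries that received no medium (5 as ORC and 1 as PC), which was not used. Synoviocytes and chondrocytes came from the femoropatellar joint and macrophages from blood monocytes, and the chondrocytes had been expanded in culture, frozen and re-differentiated. Each joint cell type came from 1 horse in the methods, so its 3 libraries per medium differ in the MSC that conditioned the medium, and p-values measure the spread between these libraries only. Whether the medium donors ORC and AG1 are the horses 99 and 92 is not given in the sources used here.

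SOX9 is the factor on which the chondrocyte lineage depends, and SOX5 and SOX6 are related factors, with no activation domain of their own, that help it on the enhancers of cartilage matrix genes. Aggrecan, encoded by ACAN, is the large proteoglycan that holds water in cartilage, and link protein, encoded by HAPLN1, fixes it to hyaluronan. COMP, a thrombospondin, and the matrilins connect collagen fibrils with the other components of the matrix. IL-1β and TNF-α are known to lower matrix genes and to raise matrix proteases in cartilage cells, and chondrocytes grown on plastic are known to lose type II collagen and gain type I collagen.

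Levels are given as CPM, the reads of a gene scaled to a common library total (counts per 1e+06 counted reads). Between 23525704 and 54103873 reads per library fell on genes (45 libraries), and 3 counts, taken as the floor for detection, were worth 0.0554 to 0.128 CPM depending on the library. Intervals and floors cover counting error only. Levels were not divided by gene length, so each gene is compared between libraries and never with another gene. In bulk RNA, fewer cells of a type and less RNA per cell cannot be told apart.

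The cell labels were compared with defining markers. In the libraries labelled chondrocytes the 11 chondrocyte markers summed to 3.21 to 7.36 CPM, against 2.40 to 3.65 CPM in synoviocytes and 4.91 to 10.6 CPM in macrophages. COL9A1, COL11A2, UCMA and CYTL1 were at 3 counts or fewer in all 11 chondrocyte libraries, COL2A1 reached 0.368 CPM at most, and COL1A1 stood at 10338 to 25183 CPM. The cells are called chondrocytes here after their label, although most of its defining markers were at or near the floor. Macrophage markers summed to 15100 to 19100 CPM in macrophages and to 11.2 to 40.7 CPM in chondrocytes. The 9 synoviocyte markers summed to 2550 to 4290 CPM in synoviocytes, 2100 to 6440 CPM in chondrocytes and 1220 to 5190 CPM in MSC. They therefore did not separate these 3 cell types. The 5 lymphocyte markers summed to 179 to 326 CPM in the macrophage libraries and to at most 0.205 CPM in the other cell types.

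Before the results, 3 chondrocyte libraries need to be set apart. Those with ORC medium correlated at 0.9979 to 0.9985 with each other (Pearson's r of log2(CPM + 1) across genes) and at 0.9885 to 0.992 with the 6 libraries with PC or AG1 medium, which correlated at 0.9969 to 0.9989 among themselves. In addition, 3 genes (ACKR1, CADM3 and CRYBB3, chosen after their values were seen) were at 3 counts or fewer in the ORC libraries and at 100 counts or more in the 8 other chondrocyte libraries, and 0 genes showed the reverse. PTGS2, an enzyme of prostaglandin synthesis that inflammatory cytokines induce, was at 127 to 350 CPM in the ORC libraries, at 1931 to 2653 CPM with PC medium and at 2093 to 3821 CPM with AG1 medium. Values that these libraries moved are given below with and without them.

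The SOX factors did not share a pattern across the cell types. SOX9 in resting MSC-CM was at 9.97, 64.8 and 9.29 CPM in chondrocytes with AG1, ORC and PC medium and at 5.34, 6.87 and 5.78 CPM in synoviocytes. In macrophages it had 0 to 2 counts. Untreated MSC of horses 92, 99 and PC held 10.8, 47.2 and 30.8 CPM. Chondrocytes and MSC overlapped, every chondrocyte library exceeded every synoviocyte library, and SOX9 in macrophages did not pass the floor.

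SOX5 was nearly equal in the 2 adherent joint cells, at 18.7, 14.7 and 20.4 CPM in chondrocytes and at 16.4, 17.4 and 18.1 CPM in synoviocytes with AG1, ORC and PC medium. It was at 0.292 to 0.850 CPM in macrophages and at 0.0621 to 0.802 CPM in untreated MSC, which overlapped each other and lay below both other cell types. SOX6 was at 7.36 to 8.26 CPM in chondrocytes and at 4.08 to 4.99 CPM in synoviocytes, without overlap, and at 0 to 0.213 CPM in macrophages and 0 to 0.830 CPM in MSC. MSC thus held SOX9 at the level of the chondrocyte libraries with SOX5 and SOX6 below 1 CPM. The tables of MSC and of joint cells were counted separately, so levels in MSC are set beside the others without a test.

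ACAN and COMP separated the chondrocytes from every other cell type. ACAN was at 15.1, 20.2 and 10.3 CPM in chondrocytes with AG1, ORC and PC medium. Synoviocytes held 0.477 to 0.916 CPM, macrophages 0.0850 to 0.248 CPM and untreated MSC 0 to 0.553 CPM. COMP was at 27.1, 15.6 and 23.2 CPM in chondrocytes, at 0.551 to 1.34 CPM in synoviocytes, at 1.24 to 3.37 CPM in untreated MSC and at 0.0531 to 0.255 CPM in macrophages. The lowest chondrocyte library lay above the highest library of each other type for both genes. HAPLN1 barely passed the floor anywhere, with at most 10 counts in any chondrocyte library with MSC-CM, 9 in synoviocytes, 5 in MSC and 0 in all 9 macrophage libraries with MSC-CM.

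The matrilins followed other orders. MATN3, a matrilin of growth plate and articular cartilage, was highest in synoviocytes at 1.67, 3.12 and 1.96 CPM with AG1, ORC and PC medium, above all untreated MSC (0.221 to 1.37 CPM), macrophages (0.213 to 0.664 CPM) and chondrocytes (0.0802 to 0.318 CPM). MATN4, which is expressed in many tissues besides cartilage, was at 3.6 to 20.2 CPM in untreated MSC, 4.15 to 9.78 CPM in macrophages, 2.15 to 6.39 CPM in chondrocytes and 2.20 to 2.75 CPM in synoviocytes, with overlap between each type and the next in that order. MATN1, the matrilin most restricted to cartilage, had at most 5 counts in a chondrocyte library, 4 in synoviocytes and 2 in MSC, and 1 to 13 counts in the macrophage libraries with MSC-CM.

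**Figure D1:**
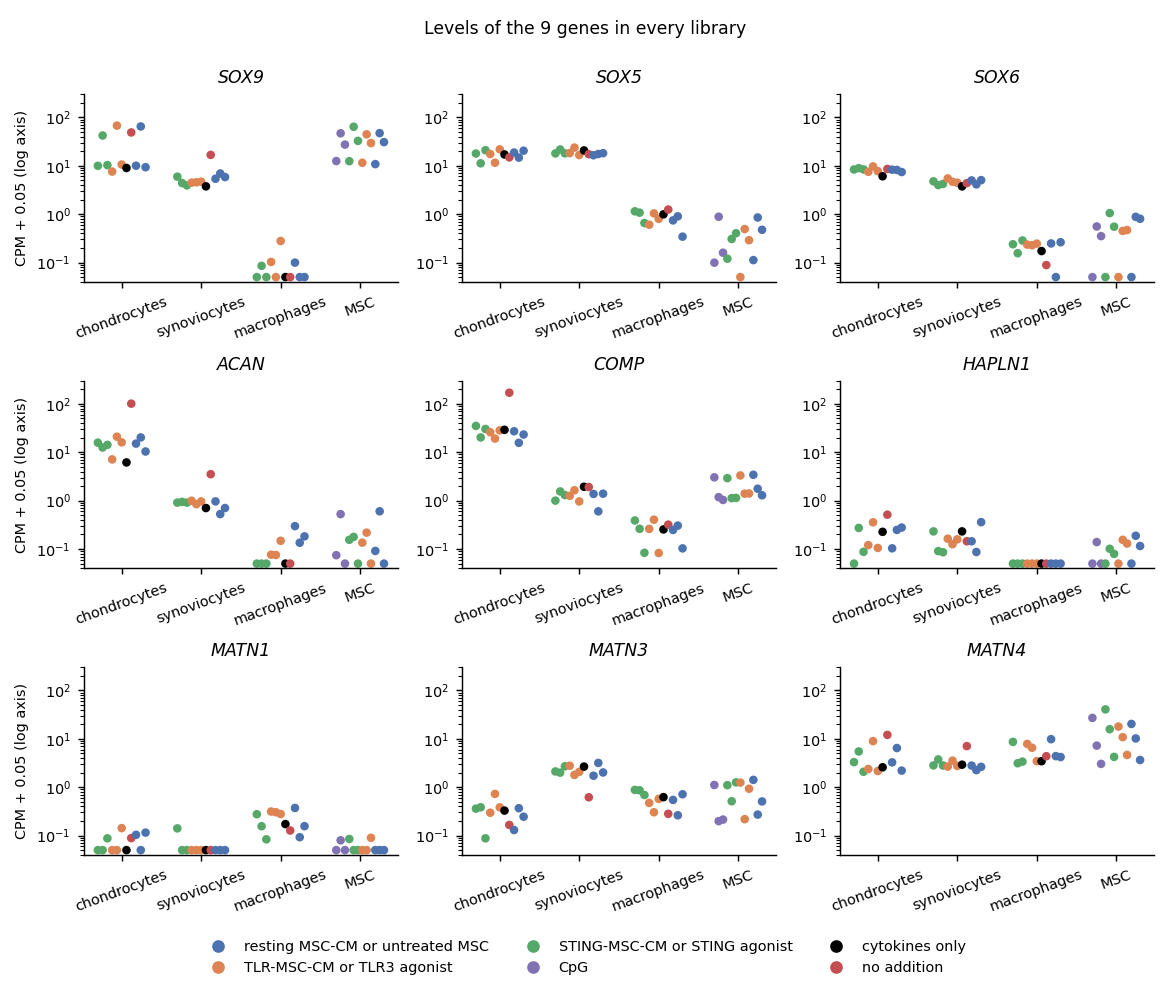
CPM + 0.05 (log axis) of each of the 9 genes in each of the 45 libraries, in 4 columns of points by cell type and coloured by condition, with libraries at 0 counts drawn at 0.05. ACAN and COMP are highest in chondrocytes, SOX5 and SOX6 in chondrocytes and synoviocytes, and MATN3 with MSC-CM in synoviocytes, while HAPLN1 and MATN1 lie near the floor in all 4 cell types.

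The cell types in resting MSC-CM were compared over 9 libraries with edgeR's quasi-likelihood test and Benjamini-Hochberg adjustment over all genes tested. Between chondrocytes and synoviocytes 4 of the 9 genes passed an adjusted p of 0.05, against 18.1% of the 15599 genes tested. ACAN was higher in chondrocytes by 4.44 on the log2 scale (SE 0.35, adjusted p = 1.85e-05) and COMP by 4.32 (SE 0.36, adjusted p = 2.73e-05), and both calls remained in every alternative tried. SOX9 was higher by 2.22 (SE 0.66, adjusted p = 0.0423). MATN3 was lower in chondrocytes by 3.55, with a log2 difference of -3.55 (SE 0.55, adjusted p = 0.00136). It had only 3, 8 and 6 counts in the chondrocyte libraries with AG1, ORC and PC medium, so the size of this difference is imprecise. In each of these 4 the libraries did not overlap, and the share of all genes without overlap is not given here.

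The SOX9 difference depended on the libraries included. Without the ORC libraries it was 0.75 (adjusted p = 0.0463), since the ORC library held 64.8 CPM and the other 2 chondrocyte libraries 9.97 and 9.29 CPM. With the medium donor as a block the adjusted p was 0.0535, and leaving out any synoviocyte library gave 0.111 to 0.130. Leaving out any macrophage library, which shares the estimate of spread, gave 0.0567 to 0.0683, and DESeq2 gave SOX9 no adjusted p. SOX6 differed by 0.75 (SE 0.29, adjusted p = 0.107), and DESeq2 gave it an adjusted p of 0.00417. SOX5 differed by 0.04 (SE 0.21, adjusted p = 0.961) and MATN4 by 0.62 (SE 0.44, adjusted p = 0.380). The median log2 difference over the 9 genes was 0.75 and that over all genes tested was 0.

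Against macrophages, 6 of the 9 genes were higher in chondrocytes and 0 lower past an adjusted p of 0.05, where 71.5% of the 15599 genes tested passed in either direction. COMP was higher by 7.09 on the log2 scale (adjusted p = 1.83e-07), ACAN by 6.51 (adjusted p = 1.63e-07), SOX6 by 5.66 (adjusted p = 4.62e-07) and SOX5 by 4.93 (adjusted p = 5.99e-08). SOX9 (adjusted p = 3.12e-05) and HAPLN1 (adjusted p = 0.0165) are given without a fold, since macrophages were at or below the floor. MATN4 had a difference of -0.63 (adjusted p = 0.2) and MATN3 of -1.29 (adjusted p = 0.0666, and 0.0474 with DESeq2). Without the ORC libraries these 2 matrilins were lower in chondrocytes, with log2 differences of -1.36 (adjusted p = 0.0115) and -2.08 (adjusted p = 0.0109). The value of MATN3 then rests on 3 and 6 counts in chondrocytes.

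Among other genes of cartilage, the difference between chondrocytes and synoviocytes was uneven. Of 20 further matrix genes tested, 3 were higher in chondrocytes and 1 lower, a share near the 18.1% of all genes that passed. Fibromodulin (FMOD), a collagen-binding proteoglycan, was at 262 to 386 CPM in chondrocytes and 22.4 to 54.5 CPM in synoviocytes, and the collagen COL27A1 at 51.3 to 58.1 CPM and 24.8 to 31.6 CPM. CILP2 had at least 29 counts in each chondrocyte library and at most 2 in synoviocytes, whereas SCRG1 had at most 5 counts in chondrocytes and at least 23 in synoviocytes.

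Of 25 regulators of chondrogenesis tested, 8 were higher in chondrocytes and 3 lower. TRPV4, a calcium channel, was at 11.9 to 15.4 CPM in chondrocytes and had at most 9 counts in synoviocytes. BMP2, a growth factor that promotes cartilage formation, was at 10.8 CPM in chondrocytes with ORC medium. It was at 66.7 and 67.1 CPM in the other chondrocyte libraries and at 7.54 to 8.23 CPM in synoviocytes. Of 12 genes in a list of matrix degradation, 2 were higher and 4 lower. This list also holds NOS2, a nitric oxide synthase, which does not itself degrade matrix. The collagenase MMP13 was at 2957 to 4773 CPM in chondrocytes against 185 to 477 CPM in synoviocytes, and the protease ADAMTS15 at 1.60 to 3.29 CPM against 20.2 to 22.2 CPM. Among 13 relatives of the 9 genes in their families, HAPLN4 was higher (25.2 to 26.2 CPM against 10.5 to 13.2 CPM) and 2 were lower, THBS2 among them (658 to 1171 CPM against 3642 to 4829 CPM). In glycosaminoglycan synthesis 3 of 18 genes were higher and 0 lower. The shares called among the relatives and in glycosaminoglycan synthesis were also near the 18.1% of all genes.

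Loss under the cytokines was read from 1 library with IL-1β and TNF-α and 1 with no addition in each cell type. There is no replicate of either, so no test was made, and the intervals are exact 95% intervals of the ratio for counting error. In chondrocytes 5 of the 8 genes with enough counts (at least 10 over both libraries) were lower by 2-fold or more, which 8.07% of the 13154 genes with enough counts also were, and 1 was higher by 2-fold or more, against 6.80%. The median log2 ratio was -1.82 over the 8 genes and -0.0388 over all.

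SOX9 was at 48.8 CPM with no addition and at 8.95 CPM with cytokines in chondrocytes, a 5.45-fold lower level with cytokines (interval 4.84 to 6.15). The partner factors stayed within 2-fold. SOX6 went from 8.53 to 6.02 CPM (1.42-fold, interval 1.17 to 1.71), and SOX5 from 14.9 to 17.1 CPM (1.15-fold higher, interval 1.01 to 1.31). SOX8, a relative of SOX9, had 16 counts with no addition and 0 with cytokines.

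The widest loss among the 9 genes was that of aggrecan. ACAN was at 101 CPM with no addition and 6.12 CPM with cytokines (16.5-fold lower, interval 14.5 to 18.9). COMP went from 170 to 29.1 CPM (5.86-fold, interval 5.49 to 6.25) and MATN4 from 12 to 2.53 CPM (4.75-fold, interval 3.78 to 6.01). HAPLN1 had 12 counts with no addition and 7 with cytokines (2.62-fold, interval 0.95 to 7.85), and MATN3 had 3 and 11 counts (2.40-fold higher, interval 0.635 to 13.4). For these last 2 genes the counting interval includes no difference.

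In synoviocytes 3 of 7 genes were lower by 2-fold or more, against 4.10% of 13255 genes, and 1 was higher, against 4.62%. SOX9 went from 16.7 to 3.70 CPM (4.52-fold, interval 3.65 to 5.65), ACAN from 3.47 to 0.653 CPM (5.32-fold, interval 3.21 to 9.31) and MATN4 from 7.01 to 2.87 CPM (2.45-fold, interval 1.88 to 3.2). MATN3 moved the other way, from 0.568 to 2.61 CPM (4.60-fold higher, interval 2.71 to 8.19). COMP was at 1.86 CPM with no addition and 1.89 CPM with cytokines, while SOX5 was at 17.3 and 20.7 CPM and SOX6 at 4.33 and 3.70 CPM. SOX9, ACAN and MATN4 were thus lower with cytokines in both adherent joint cell types, and COMP in chondrocytes, where its level with no addition was 170 CPM. Whether the cell types differ in these ratios was not tested.

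In macrophages 0 of 4 genes were lower by 2-fold or more, against 1.71% of 13094 genes, and 1 was higher, against 2.57%. That gene was MATN3, with 6 counts with no addition and 14 with cytokines (2.47-fold higher, interval 0.893 to 7.85). MATN4, the member with the most counts there, was at 4.32 and 3.39 CPM (1.27-fold lower with cytokines, interval 0.95 to 1.71). Of 11 known cytokine response genes, 0 were higher and 0 lower by 2-fold or more in this pair. Their median log2 ratio was 0.0278, against 0.0418 over all genes. The macrophage pair thus showed no response to the cytokines in that list by this measure.

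**Figure D2:**
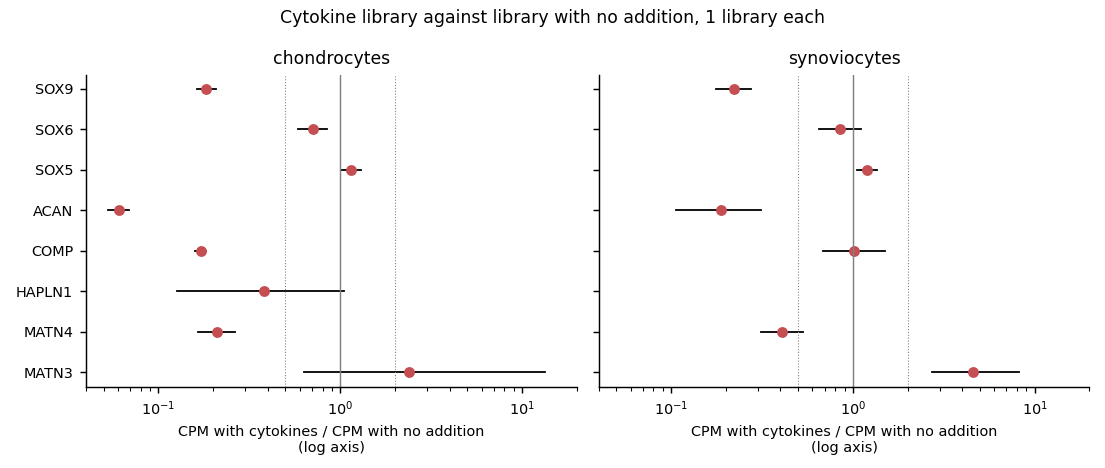
Ratio of the CPM with cytokines to the CPM with no addition (log axis) in chondrocytes and synoviocytes, 1 library per condition, for the genes with enough counts, with bars for the exact 95% counting interval, a solid line at equal levels and dotted lines at a 2-fold change in either direction. ACAN, COMP, SOX9 and MATN4 lie beyond 2-fold lower in chondrocytes, SOX5 and SOX6 lie within 2-fold, and MATN3 lies beyond 2-fold higher in synoviocytes.

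The genes around the 9 members moved in both directions in the same pair of chondrocyte libraries. Over all genes with enough counts there, 8.07% were lower by 2-fold or more and 6.80% higher. Of 15 other matrix genes with enough counts, 9 were lower by 2-fold or more and 0 higher. SCRG1 was 13.1-fold lower with cytokines, MATN2 12.5-fold, CILP2 7.54-fold and FMOD 4.10-fold. Of the 12 genes in the list of matrix degradation, 6 were higher and 2 lower. Among them were MMP1 (326-fold higher, 54.7 to 17849 CPM), MMP13 (6.27-fold higher) and ADAMTS12 (4.17-fold lower). NOS2, the nitric oxide synthase counted in that list, was 18.7-fold higher. Of 21 regulators 4 were lower and 4 higher, among them NFATC2 (5.42-fold lower) and BMP2 (13.0-fold higher). Genes of glycosaminoglycan synthesis gave 0 lower and 1 higher of 18, and genes associated with dedifferentiation gave 5 lower and 0 higher of 10. Relatives in the same families gave 4 lower and 0 higher of 10.

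In synoviocytes 4.10% of all genes with enough counts were lower by 2-fold or more and 4.62% higher. Of 13 other matrix genes 4 were lower and 1 higher, with SCRG1 18.9-fold and MATN2 6.52-fold lower and VIT 4.83-fold higher. Of the 12 genes in the list of matrix degradation 4 were higher and 0 lower. These were MMP1 by 9.95-fold, MMP13 by 6.04-fold, ADAMTS4 by 2.89-fold and the nitric oxide synthase NOS2 by 28.7-fold. Of 11 known cytokine response genes, 7 were higher and 0 lower in both chondrocytes and synoviocytes. In macrophages 0 of the 11 were higher and 0 lower.

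The libraries with cytokines and MSC-CM mostly lay near the library with cytokines and not near the one with no addition. In chondrocytes the 9 libraries with MSC-CM ran from 7.07 to 21.0 CPM for ACAN (median 15.1), from 15.6 to 35.0 CPM for COMP (median 25.9) and from 2.03 to 8.90 CPM for MATN4 (median 3.21). All 9 lay below the no addition library for these 3 genes, and all 9 lay above the library with cytokines only for ACAN (6.12 CPM) and SOX6 (6.02 CPM). SOX9 was at 7.53 to 10.6 CPM in the 6 libraries with PC or AG1 medium, near the 8.95 CPM with cytokines only, and at 42.1 to 67.6 CPM in the 3 libraries with ORC medium, on both sides of the 48.8 CPM with no addition. With the mean of the 3 resting MSC-CM libraries in place of the cytokine library, the log2 ratio to no addition was -0.80 for SOX9, -2.73 for ACAN, -2.95 for COMP and -1.62 for MATN4, where the cytokine library gave -2.45, -4.05, -2.55 and -2.25. Without the ORC library in that mean the values were -2.34, -2.99, -2.76 and -2.16.

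In synoviocytes the 9 libraries with MSC-CM ran from 3.87 to 6.87 CPM for SOX9 (median 4.64), from 0.477 to 0.946 CPM for ACAN (median 0.862) and from 2.20 to 3.69 CPM for MATN4 (median 2.75), all below the no addition library. For MATN3 they ran from 1.67 to 3.12 CPM (median 2.02), all above the 0.568 CPM with no addition. COMP ran from 0.551 to 1.59 CPM, below both the 1.86 CPM with no addition and the 1.89 CPM with cytokines only. MSC-CM was not tested against cytokines alone, since the single cytokine library has no replicate.

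The chondrocyte libraries differed with the medium donor. An F test over the medium donors beside the condition called 4 of the 9 genes at an adjusted p of 0.05, against 40.1% of the 14304 genes tested (edgeR). The share called among the 9 genes was thus near that of all genes. Its adjusted p-values cover all medium donors and are not of ORC against the others. The folds beside them are ratios of mean CPM, for a grouping made after the values were seen. SOX9 was at 64.8, 67.6 and 42.1 CPM in resting, TLR and STING MSC-CM of donor ORC, a mean of 58.2 ± 14 (SD, n = 3). The 6 libraries with PC or AG1 medium ran from 7.53 to 10.6 CPM (median 9.94), a mean of 9.59 ± 1.09 (SD, n = 6), so that SOX9 was 6.07-fold higher with ORC medium (adjusted p = 1.36e-09). MATN4 was higher in the same libraries, at 6.39, 8.90 and 5.43 CPM against 2.03 to 3.24 CPM (2.75-fold, adjusted p = 1.15e-05). The 3 ORC libraries lay above all 6 others for both genes. The share of all genes whose ORC libraries lay apart in this way is not given here.

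SOX5 and COMP went the other way. With ORC medium SOX5 was at 14.7, 11.5 and 11.2 CPM in resting, TLR and STING MSC-CM, below the 17.4 to 21.8 CPM of the 6 others (1.57-fold higher in the others, adjusted p = 7.53e-05). COMP was at 15.6, 19.1 and 20.2 CPM, below the 23.2 to 35.0 CPM of the 6 others (1.54-fold, adjusted p = 9.61e-05). ACAN averaged 17.9 ± 4.69 CPM with ORC medium (SD, n = 3) and 13.1 ± 3.59 CPM with the others (SD, n = 6), and its libraries overlapped (adjusted p = 0.165), as did those of SOX6 (adjusted p = 0.198), HAPLN1 (adjusted p = 0.0916) and MATN3 (adjusted p = 0.244). The library groups that were higher for SOX9 and MATN4 were therefore lower for SOX5 and COMP.

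Without the ORC libraries no call remained. The medium donor then gave 0 of 13967 genes called with edgeR (2270 at an unadjusted p under 0.05), and the adjusted p-values were 0.539 for SOX9, 0.304 for MATN4, 0.165 for SOX5 and 0.708 for COMP. SOX5 was still at 20.4 to 21.8 CPM with PC medium and 17.4 to 18.7 CPM with AG1 medium, and MATN4 at 2.03 to 2.15 CPM and 2.32 to 3.24 CPM, without overlap for either. The 4 calls thus rest on the 3 ORC libraries. Other genes moved in the same libraries. IL6 was at 863 to 1241 CPM with ORC medium and 2776 to 3391 CPM with PC medium, the collagenase MMP1 at 2605 to 3724 CPM and 11834 to 13990 CPM, NOS2 at 18.7 to 45.5 CPM and 212 to 300.2 CPM, and COL1A1 at 23263 to 25169 CPM and 12441 to 13472 CPM. Markers of cell types were called by medium donor too, against 40.1% of the 14304 genes tested. They were 4 of 4 smooth muscle markers, 7 of 8 MSC markers, 4 of 8 synoviocyte markers, 2 of 3 endothelial markers, 2 of 7 chondrocyte markers and 1 of 5 macrophage markers. Smooth muscle and MSC markers were thus called more often than genes at large, and chondrocyte and macrophage markers less often. Lists other than markers were called as well. They gave 11 of 11 cytokine response genes, 12 of 12 of matrix degradation, 10 of 10 of dedifferentiation and 17 of 24 regulators of chondrogenesis. For glycosaminoglycan synthesis 8 of 18 genes were called, for other matrix genes 6 of 20 and for relatives 4 of 12. The 4 smooth muscle markers summed to 3336 to 3541 CPM with ORC medium and 1357 to 1855 CPM with the others, and the 11 chondrocyte markers to 5.68 to 7.36 CPM and 3.21 to 4.40 CPM. The MSC markers summed to 1236 to 1266 CPM and 1265 to 1367 CPM, although THY1 was at 192 to 237 CPM against 45.0 to 72.8 CPM and MCAM at 11.2 to 11.4 CPM against 2.82 to 4.22 CPM. The part of these differences, and of the 3 genes near 0 in the ORC libraries, in the levels of SOX9, MATN4, SOX5 and COMP was not tested, and the medium donor and anything else that these 3 libraries share cannot be told apart.

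In synoviocytes the same media gave 0 of 8 genes called and 0% of the 14584 genes tested with edgeR (413 genes, 2.83%, at an unadjusted p under 0.05, 0 of the 8 among them, and 3 genes called by DESeq2). SOX9 with ORC medium was at 6.87, 4.50 and 4.34 CPM in resting, TLR and STING MSC-CM and at 3.87 to 5.90 CPM with PC or AG1 medium, with overlap. Every member overlapped between ORC and the other media in synoviocytes. SOX5 was at 17.4, 23.7 and 21.7 CPM with ORC medium and at 16.4 to 18.2 CPM with the others, and without the resting ORC library it was the 1 member called (adjusted p = 0.0472), in a direction opposite to that in chondrocytes.

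The difference between the 2 cell types in how the libraries varied with the medium donor was tested itself, in a model over 18 libraries. It called 3 of the 9 genes, against 18.3% of the 15266 genes tested. The value given is the range, over the medium donors, of the difference between the cell types, with the adjusted p of an F test (edgeR). It was 2.77 on the log2 scale for SOX9 (adjusted p = 5.01e-07) and 1.58 for MATN4 (adjusted p = 0.00225). SOX5 had 0.95 (adjusted p = 0.000416) and COMP 0.65 (adjusted p = 0.319).

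**Figure D3:**
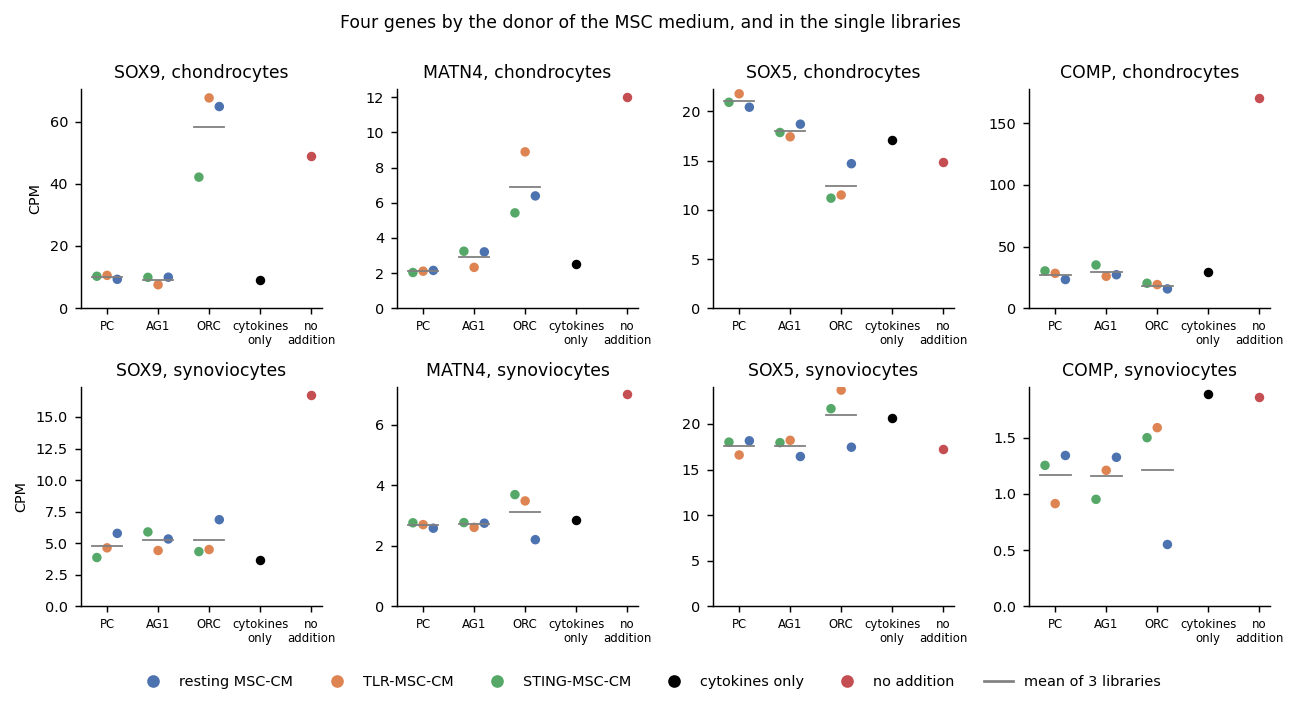
CPM of SOX9, MATN4, SOX5 and COMP in chondrocytes and in synoviocytes, each point a library, placed by medium donor (PC, AG1 or ORC) with a line at the mean of 3 libraries, and beside them the single libraries with cytokines only and with no addition. In chondrocytes the 3 ORC libraries lie above the other donors for SOX9 and MATN4 and below them for SOX5 and COMP, and in synoviocytes the donors overlap for all 4 genes.

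The kind of MSC-CM was then compared within each cell type. In chondrocytes TLR-MSC-CM against resting MSC-CM called 0 of the 9 genes and 0% of 14304 genes with edgeR (80 genes, 0.559%, at an unadjusted p under 0.05, and 0 members). STING-MSC-CM against resting called 0 as well (130 genes, 0.909%, and 0 members, or 2 genes and 0 members with the medium donor as a block), as did STING against TLR-MSC-CM (116 genes, 0.811%, and 0 members). DESeq2 also called 0 members in each, with no adjusted p for SOX9. ACAN was at 7.07, 21.0 and 16.0 CPM with TLR-MSC-CM of AG1, ORC and PC and at 15.7, 12.5 and 14.2 CPM with STING-MSC-CM, against 15.1, 20.2 and 10.3 CPM with resting MSC-CM. The change with TLR-MSC-CM was thus a fall in AG1, little in ORC and a rise in PC, and the 3 media overlapped.

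COMP was higher with STING-MSC-CM than with resting MSC-CM in all 3 donors, at 35.0 against 27.1 CPM in AG1, 20.2 against 15.6 CPM in ORC and 30.2 against 23.2 CPM in PC. The groups overlapped, and the log2 difference of 0.35 (SE 0.23) had an adjusted p of 1 with edgeR, or 0.901 with the medium donor as a block. For SOX9 the difference with STING-MSC-CM was -0.44 (SE 1.06) with all libraries and 0.03 (SE 0.17) without ORC, and with TLR-MSC-CM 0.06 (SE 1.05) and -0.07 (SE 0.17). The SE of SOX9 was thus larger with the ORC libraries than without them.

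In synoviocytes TLR-MSC-CM against resting called 0 of 8 genes and 0% of 14584 genes (1465 genes, 10%, at an unadjusted p under 0.05, SOX9 among them as the 1 member). SOX9 was at 4.43, 4.50 and 4.64 CPM with TLR-MSC-CM of AG1, ORC and PC and at 5.34, 6.87 and 5.78 CPM with resting MSC-CM, so that it was lower in 3 of 3 donors without overlap. The log2 difference was -0.40 (SE 0.16) with an adjusted p of 0.494 by edgeR. STING-MSC-CM against resting called 0 (1109 genes, 7.6%, and 0 members), with SOX9 at 5.90, 4.34 and 3.87 CPM and a difference of -0.34 (adjusted p = 0.634). STING against TLR-MSC-CM also called 0 (294 genes, 2.02%, and 0 members). None of the 8 genes was called by DESeq2 in these comparisons.

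The change with the medium did not differ measurably between chondrocytes and synoviocytes. For TLR-MSC-CM 0 of 9 genes and 0% of 15266 genes were called in the interaction term (294 genes, 1.93%, at an unadjusted p under 0.05, 0 members), and for STING-MSC-CM 0 as well (272 genes, 1.78%, 0 members). SOX9 had an interaction of 0.47 (SE 1.19) with TLR-MSC-CM and of -0.10 (SE 1.19) with STING-MSC-CM, and of 0.22 (SE 0.27) with each without the ORC libraries, which does not show that the 2 cell types act alike.

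In macrophages TLR-MSC-CM called 0 of 8 genes and 0% of 15052 genes (320 genes, 2.13%, at an unadjusted p under 0.05, 0 members), and STING-MSC-CM 0 (717 genes, 4.76%, ACAN as the 1 member). ACAN had 10, 2 and 5 counts with resting MSC-CM of AG1, ORC and PC and 0 in all 3 libraries with STING-MSC-CM, with an adjusted p of 0.907 by edgeR. With the medium donor as a block, STING-MSC-CM called 80 genes (2031 at an unadjusted p under 0.05) and 0 members, with an adjusted p of 0.232 for ACAN. DESeq2 called 9 genes and gave ACAN no adjusted p. With so few counts no fold is given. MATN4, at 3.07 to 9.78 CPM over the 9 libraries, was the only one of the 9 genes above 2 CPM in macrophages.

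**Figure D4:**
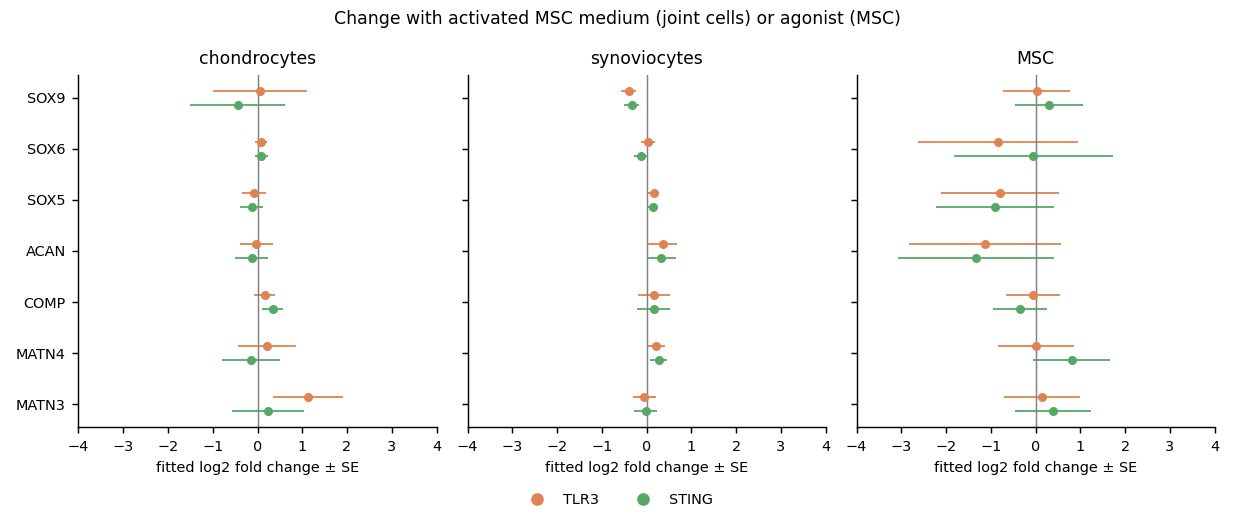
Fitted log2 fold change of 7 of the 9 genes, with bars of 1 standard error, for TLR-activated or STING-activated against resting MSC-CM in chondrocytes and synoviocytes and for each agonist against untreated MSC (n = 3 per group). The fits have no donor term. SOX9 has wide bars in chondrocytes and lies below 0 with both media in synoviocytes, and 0 of these genes passed an adjusted p of 0.05 in any panel.

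In MSC none of the 8 genes tested was called with an agonist. The fit has no term for the horse, so differences between horses add to its spread. It cannot show that the agonists leave the members unchanged. The TLR3 agonist called 0 of 8 genes and 0% of 14872 genes with edgeR (171 genes, 1.15%, at an unadjusted p under 0.05, 0 members), the STING agonist 0 (312 genes, 2.1%, 0 members, or 2 genes and 0 members with the horse as a block) and CpG 0 of 15099 genes (46 genes, 0.305%, 0 members). DESeq2 called 48 genes with the TLR3 agonist and 93 with the STING agonist, 0 members among them. SOX9 was at 11.5, 44.6 and 29.4 CPM with the TLR3 agonist in horses 92, 99 and PC, at 12.4, 64.0 and 32.6 CPM with the STING agonist and at 12.5, 46.9 and 27.3 CPM with CpG, against 10.8, 47.2 and 30.8 CPM untreated. MATN4 with the STING agonist had a log2 difference of 0.81 (SE 0.86), and of 0.65 with the horse as a block (adjusted p = 0.410).

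In the main fit each gene that could be tested was called between the horses. An F test of the horse beside the condition called all 8 genes tested, against 55.9% of the 15099 genes tested. MATN1, with at most 2 counts, was not tested. SOX9 averaged 11.8 ± 0.810 CPM in horse 92, 50.6 ± 8.96 CPM in horse 99 and 30.0 ± 2.23 CPM in horse PC (SD, n = 4 libraries of 1 horse each), without overlap (adjusted p = 4.79e-07). SOX6 had 0 counts in all 4 libraries of horse 92 and was at 0.399 to 1.00 CPM in horse 99 and 0.301 to 0.752 CPM in horse PC (adjusted p = 0.000388). SOX5 was at 0 to 0.07 CPM in horse 92, 0.256 to 0.833 CPM in horse 99 and 0.109 to 0.425 CPM in horse PC (adjusted p = 0.0044). For all 3 SOX factors horse 92 was the lowest.

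The matrix genes were ordered differently. MATN4 was highest in horse 92, at 17.8 to 40.5 CPM, followed by 7.17 to 15.7 CPM in horse 99 and 2.98 to 4.59 CPM in horse PC, without overlap (adjusted p = 1.41e-05). COMP was also highest in horse 92, at 2.87 to 3.37 CPM, against 1.08 to 1.71 CPM in horse 99 and 0.985 to 1.36 CPM in horse PC, which overlapped each other (adjusted p = 0.000187). ACAN had 0 counts in all 4 libraries of horse PC and was at 0.128 to 0.553 CPM in horse 99 and 0.0246 to 0.105 CPM in horse 92 (adjusted p = 0.00848). MATN3 was at 1.05 to 1.37 CPM in horse 92, 0.149 to 0.461 CPM in horse 99 and 0.164 to 1.21 CPM in horse PC (adjusted p = 0.00594). HAPLN1 had 0 counts in horse 92 and at most 5 in the others (adjusted p = 0.0427, and 0.0579 with DESeq2), and most alternatives ended its call. The 4 libraries of a horse come from 1 animal, so these p-values measure the spread between cultures, not between horses.

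**Figure D5:**
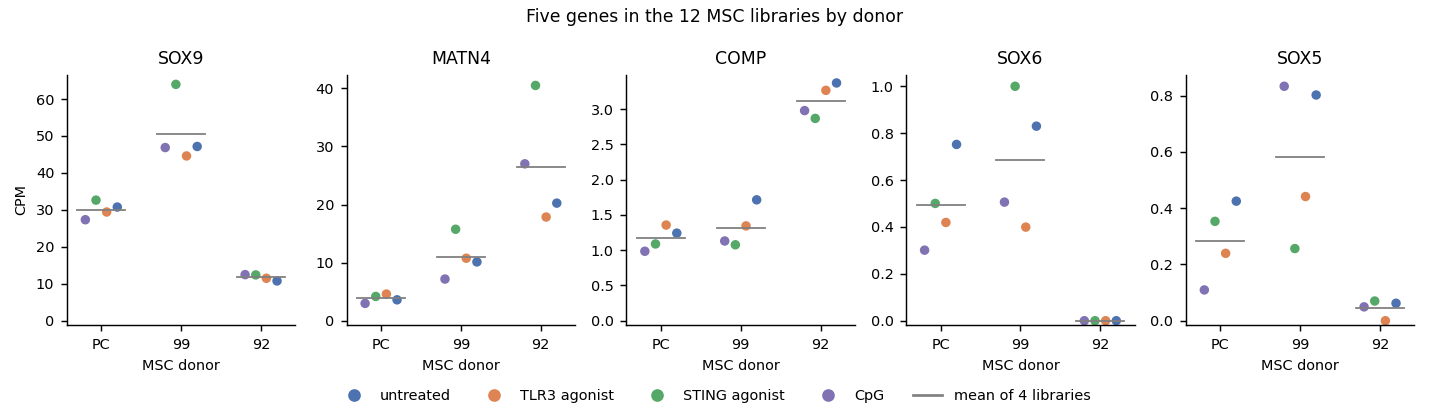
CPM of SOX9, MATN4, COMP, SOX6 and SOX5 in the 12 MSC libraries, each point a library placed by horse (PC, 99 or 92) and coloured by condition, with a line at the mean of 4 libraries. Horse 92 lies lowest for the 3 SOX factors and highest for MATN4 and COMP.

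Over the 11 chondrocyte libraries the genes most like SOX9, by Pearson's r of log2(CPM + 1) among 11575 genes with a mean of at least 1 CPM, were ECRG4 (0.993), SRPX (0.991), KCNC2 (0.991), EPHB3 (0.990) and MANSC1 (0.986). Of the members, MATN4 had r of 0.913 with SOX9 and SOX5 of -0.825. The genes most like ACAN were MRC2 (0.985), FOXP4 (0.976), PRKCA (0.973), COL16A1 (0.969) and CCN5 (0.969), and those most like COMP included RARRES2 (0.988), TK2 (0.976), MAPK12 (0.975) and RPN1 (0.970) after 1 gene listed by identifier. ACAN and COMP had r of 0.734 with each other, and SOX9 and COMP of 0.0554. Over the 8 libraries without ORC medium SOX9 had r of 0.972 to 0.986 with the 5 genes named beside it, 0.952 with MATN4 and -0.611 with SOX5. In those 8 libraries the value was 0.982 between SOX9 and COMP and 0.924 between ACAN and COMP. The 5 genes had been picked over libraries that include these 8, so their high values there are no separate evidence. Among the 8, SOX9 was at 48.8 CPM in the no addition library and at 7.53 to 10.6 CPM in the others. COMP was at 170 CPM against 23.2 to 35.0 CPM. The values over 8 libraries thus rest largely on the no addition library. These values describe libraries of cells from 1 horse, in which the ORC libraries and the no addition library stand at the ends of the range.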

How the data were processed

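Reads of 45 libraries were trimmed (Cutadapt 1.12), aligned to EquCab3.0 with STAR and counted per gene with HTSeq 0.11.0, per the submitters' processing notes and the paper's methods. The authors deposited whole-number counts of protein coding genes, without normalization, in 2 tables (MSC, and joint cells). In these, 31 and 10 values are rounded to 3 significant digits, and 3970 of the 20881 genes carry an identifier in place of a symbol. No pair of the 39 pairs of libraries within a group was a duplicate (chi-square per gene at least 6.36).

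From the counts, CPM was computed on the library total. Each comparison was fitted with edgeR 4.0.16 (TMM, quasi-likelihood test, R 4.3.3) over the libraries of the conditions compared. Genes needed a total of 10 counts in the fit, and Benjamini-Hochberg adjustment covered every gene tested, with a threshold of 0.05. The scripts were tested on simulated data. An exact permutation test of 3 libraries against 3 cannot go below 0.1 and was not used. Single libraries were compared by CPM ratio with exact conditional binomial (Clopper-Pearson) 95% intervals. DESeq2 1.42.0, no filter, the donor as a block, wider sets of libraries and leaving out each library were the alternatives.

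The donor in the labels pairs libraries across conditions. Deviations from the condition means correlated within donors at a median of 0.821 in MSC, 0.676 in chondrocytes and 0.440 in macrophages, with each pair above 0.1. In synoviocytes the median was 0.0666 and the lowest -0.382.

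The 9 genes and all lists were chosen with earlier results of these data known. All 9 genes are named. From the other lists up to 4 genes per comparison with the largest change were named, and for SOX9, ACAN and COMP the 5 genes most alike over chondrocyte libraries. Gene lengths and sequences were not used here.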

Additional observations from a re-analysis of the deposited data

Results flagged for a closer look

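For 3 genes the variation with the medium donor differed between chondrocytes and synoviocytes by a test of the difference itself (edgeR, chosen after seeing the data): SOX9 by 2.77 on the log2 scale, MATN4 by 1.58 and SOX5 by 0.95. In chondrocytes SOX9 and MATN4 were higher and SOX5 was lower in each of the 3 ORC libraries than in the 6 others, and in synoviocytes the libraries overlapped for all 3 genes. The donor spread itself was 2.71 for SOX9, 1.76 for MATN4 and 0.73 for SOX5 in chondrocytes, and 0.15, 0.18 and 0.22 in synoviocytes.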

How the results depend on the processing

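No fold change that passed its test and no ratio of 2-fold or more changed direction under an alternative. Smaller differences did, such as those of SOX9 in chondrocytes with each activated medium without the ORC libraries. With the mean of the resting MSC-CM libraries in place of the cytokine library, the log2 ratio to no addition went from -0.348 to 0.495 for MATN4 in macrophages, from -0.225 to 0.109 for SOX6 and from 0.0182 to -0.796 for COMP in synoviocytes. Of the counts of genes and members recomputed, 625 were within 1.5 times the reported count and 19 were not, and of the values of single genes 535 were the same, 25 lost and 8 gained a call, and 17 moved. The cause of each change was not tested. DESeq2 called 48 genes with the TLR3 agonist and 93 with the STING agonist in MSC, 2 in synoviocytes with TLR-MSC-CM, 9 in macrophages with STING-MSC-CM and 3 for the medium donor in synoviocytes, each against 0 with edgeR. With the donor as a block, edgeR called 2 genes with the STING agonist in MSC, 2 in chondrocytes and 80 in macrophages with STING-MSC-CM, and it left the other numbers of called genes within 1.5 times. At an unadjusted p under 0.05 the block raised the number of genes, with STING from 312 to 1410 in MSC, from 130 to 561 in chondrocytes and from 717 to 2031 in macrophages. Of the members' calls it ended that of SOX9 between chondrocytes and synoviocytes (adjusted p = 0.0535). Without the filter 1 gene was called in synoviocytes with TLR-MSC-CM. With the mean of the 9 libraries with medium in place of the cytokine library, 120 genes were 2-fold lower in macrophages, against 224. Without the ORC libraries (added after seeing the data) the medium donor called 0 genes and 0 members in chondrocytes and 18 genes in synoviocytes.

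Leaving out 1 library at a time gave 0 to 51 genes for the TLR3 agonist and 0 to 54 for the STING agonist in MSC, the highest without the TLR3 library of horse 92. It gave 1781 to 3759 genes between chondrocytes and synoviocytes, the lowest without the synoviocyte library with PC medium and the highest without the chondrocyte library with ORC medium, and 0 to 710 genes and 0 to 1 members for the medium donor in synoviocytes, the highest without the resting ORC library. HAPLN1 between horses rests on at most 5 counts per library, with adjusted p from 0.0426 to 0.0931 over its alternatives. The low counts of MATN1 and HAPLN1, of MATN3 in chondrocytes, and of SOX5, SOX6 and ACAN in MSC and macrophages, limit the precision of their values.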
